A study of Mus musculus with 6 samples.

Results

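The genes described here encode the potassium channels, the voltage-gated sodium channels and the HCN pacemaker channels, with their accessory subunits. They were chosen by name, as every probe other than a control whose gene name begins with Kcn, is an Scn gene of an alpha or beta subunit, or is an Hcn gene. The rule found 151 probes of 101 genes among the 41174 probes of the array, and it used no measured value. RNA was measured in whole hearts of 12-week-old mice, 3 WT and 3 TG-PKR1, with 1 single-dye Agilent array per heart. TG-PKR1 mice overexpress the prokineticin receptor PKR1 in cardiomyocytes, under the alpha myosin heavy chain promoter, and WT mice carry no transgene. No treatment or diet is named in the labels of either group. In RNA from a whole organ, fewer cells of a type and less RNA per cell cannot be told apart.

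In a working heart cell the upstroke of the action potential is carried by sodium entering through voltage-gated sodium channels. Repolarization in the mouse depends on a transient outward current through Kv4 channels (Kcnd2, Kcnd3 and the accessory subunit Kcnip2) and on delayed rectifiers such as that of Kcna5. Inward rectifiers of the Kcnj family set the resting potential, and HCN channels carry the depolarizing current of pacemaker cells.

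The arrays differed technically before any comparison. The scan mode was inferred from the saturation value that the scanner software recorded for each array. By this value, WT 1, TG-PKR1 2 and TG-PKR1 3 were taken as scanned with an extended range. WT 2, WT 3 and TG-PKR1 1 were taken as scanned in a single scan. The upper quartile of spot signals, divided by the median background of the array, was 11.4 to 14.1 on the first 3 arrays and 2.08 to 3.97 on the others. The scanner software marks each spot that is clearly brighter than its surroundings, and probes so marked are called well above background here. There were 42 to 61 such channel probes per WT array and 48 to 67 per TG-PKR1 array. Prokr1, which encodes PKR1, had a probe that was well above background on 0 of 6 arrays, so it does not check the genotype labels. All 8 listed cardiomyocyte markers, such as Myh6 and Tnnt2, were well above background on at least 3 arrays. Among the neuronal markers only Uchl1 was, while all 5 glial markers were.

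Fewer channel probes than probes in general gave a clear signal in the heart. Of the 151 channel probes, 58 (38.4%) were well above background on at least 3 arrays, against 23205 (56.4%) of all 41174 probes, which is a description of the array and no test. These 58 probes represented 47 of the 101 genes. The probes of 33 genes were above background on all 6 arrays, those of 16 genes on 1 or 2 arrays and those of 38 genes on 0 arrays. No channel probe was saturated on any array. A probe that misses this test gives no evidence that its gene was silent. Each probe binds its target differently, so signals of different probes do not rank the genes by abundance.

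**Figure D1:**
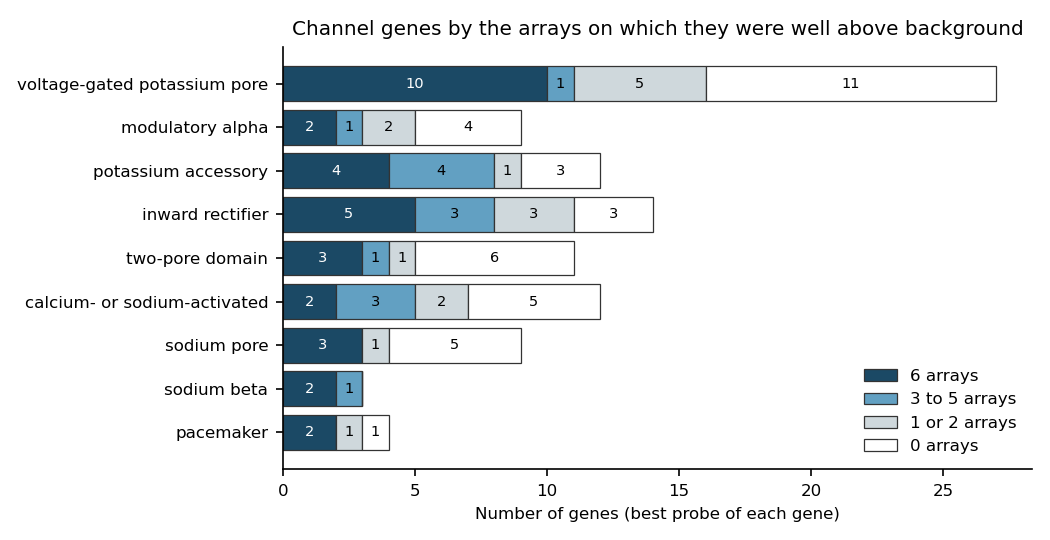
Number of channel genes by role, split by the number of arrays (of 6) on which the best probe of the gene was well above background. All 3 sodium channel beta subunits but 3 of 9 sodium channel pores reached 3 or more arrays.

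Among voltage-gated potassium pores, 11 of 27 genes passed. Among them were the Kv4 genes Kcnd2 and Kcnd3, the Kv1 genes Kcna1, Kcna4, Kcna5 and Kcna6, Kcnq1 (the pore of the slow delayed rectifier), Kcnh2 (the ERG pore of the rapid delayed rectifier) and Kcnh6. Kcnd1 and Kcna2 were well above background on 0 arrays. Modulatory alpha subunits, which form no channel alone and change the properties of others, passed in 3 of 9 genes, Kcng2, Kcns3 and Kcnv2. Accessory potassium subunits passed in 8 of 12 genes, among them Kcnip2, Kcnab1, Kcne1 and Kcne4, while Kcne2 did not pass on any array.

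Inward rectifiers passed in 8 of 14 genes. These included Kcnj2 and Kcnj12 of the resting inward rectifier, Kcnj3 and Kcnj5 of the acetylcholine-gated channel, and Kcnj11 and Kcnj8 of the ATP-sensitive channels. Two-pore domain channels, which carry background potassium current, passed in 4 of 11 genes (Kcnk3, Kcnk4, Kcnk6 and Kcnk13). Calcium- or sodium-activated channels passed in 5 of 12 genes, with Kcnn1 and Kcnn2 on all 6 arrays and the BK pore Kcnma1 on 0. Sodium channel pores passed in 3 of 9 genes, Scn4a and Scn10a among them, and the beta subunits in 3 of 3, Scn2b and Scn3b among them. Of the pacemaker genes, Hcn2 and Hcn4 were above background on 6 arrays and Hcn3 on 0. Scn4b was not analysed here.

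Probes just inside and just outside the minimum of 3 arrays were dim. The 7 probes on exactly 3 arrays had normalized log2 signals of 5.84 to 6.32, and the 5 probes on exactly 2 arrays had signals of 5.75 to 6.39. The genes at this edge were Kcne1l, Kcne3, Kcnip3 and Kcnk4 inside it and Kcnc4, Kcnj9, Kcnk12 and Kcnt1 outside it.

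The series compares hearts with and without the overexpressed receptor. limma called 0 of the 43 channel probes (35 genes) that were among the 20000 brightest probes, at an adjusted p of 0.05. Over all 20000 probes it called 0.095% lower and 0% higher in TG-PKR1 hearts. Those 19 calls were 0 without any one of WT 1, WT 3, TG-PKR1 1 and TG-PKR1 3, and 8 without TG-PKR1 2. At an unadjusted p of 0.05 it passed 0 channel probes, against 2.38% of all probes (5 of 43 without WT 1, 11.6% against 5.29%), and SAM called 0, against 0.271%. The smallest limma adjusted p of a channel probe was 0.9999. No channel gene rose or fell by the test. The spread between hearts sets how small a difference could be seen. The standard error of the log2 difference was 0.14 to 0.33 among the tested channel probes (median 0.22), and the 95% intervals ran from lower ends of -0.81 to -0.0196 (median -0.41) to upper ends of 0.01 to 1.13 (median 0.54).

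The group means of the 43 probes were close. The median difference, TG-PKR1 minus WT, was 0.04 on the log2 scale, beside 0.03 over all 20000 probes, and 65.12% of channel probes had the higher mean in TG-PKR1 hearts, beside 58.16% of all. In 3 of the 43 (6.977%) the hearts of the groups did not overlap, beside 5.41% of all probes, so this share lay near the background. The 3 were Kcng2 and Kcnh2, above WT in all TG-PKR1 hearts (2.68% of all probes were), and Scn3b, below (2.73% of all).

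**Figure D2:**
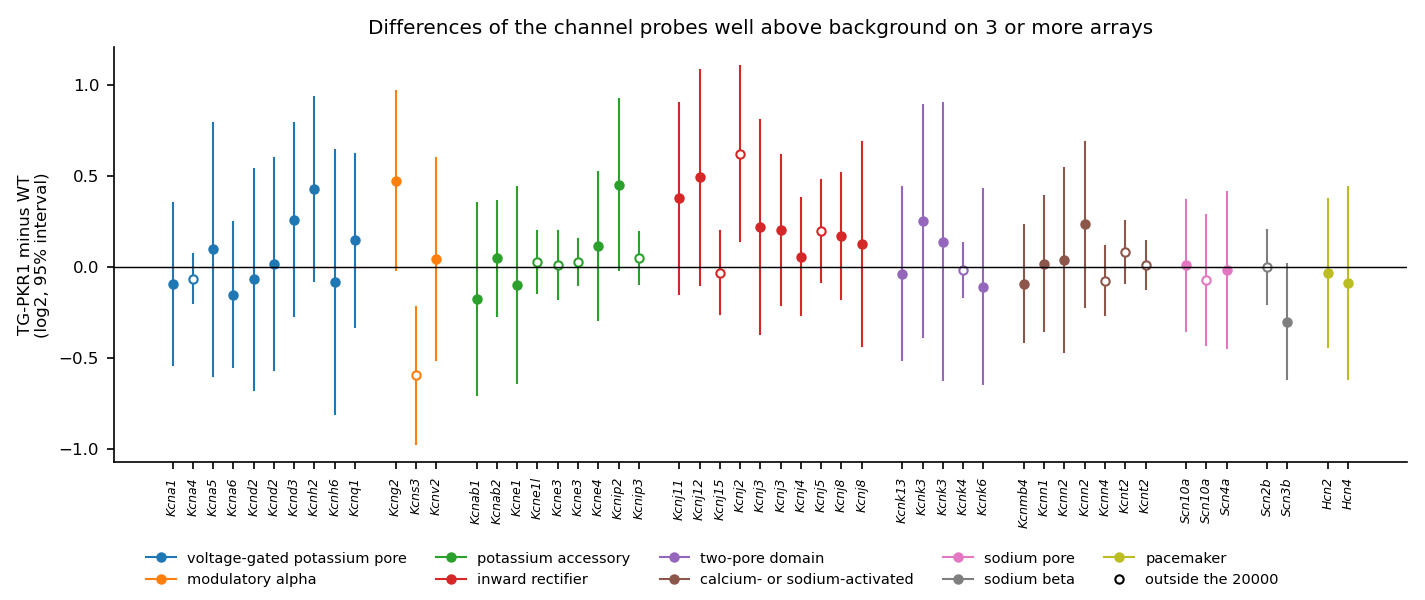
Difference TG-PKR1 minus WT (log2) of channel probes detected on at least 3 arrays, with limma's 95% intervals (filled, among the 20000 brightest; open, outside them, from the fit over all 41174 probes). The intervals of all tested probes shown include 0. Those of Kcnj2 (0.1395 to 1.1025) and Kcns3 (-0.97 to -0.22), both outside the 20000, do not, with an adjusted p of 1.

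Probe positions are those of mm8 in the scanner files, and exons or UTRs of that build were not annotated here. The 4 tested probes of sodium channel pores gave no common direction, with the higher mean in TG-PKR1 hearts in 2 and the lower in 2. Scn4a, the pore of skeletal muscle, measured 7.56, 7.55 and 7.04 in WT 1, 2 and 3 and 7.49, 7.42 and 7.20 in TG-PKR1 1, 2 and 3. The hearts overlapped, and the difference was -0.02 (SE 0.19, limma adjusted p = 0.9999). Scn10a, the pore known from sensory neurons, differed by 0.01 (SE 0.16).

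Among the beta subunits, which adjust the gating and surface level of the pore, Scn3b had the only detected probe whose groups lay apart. Its other probes were above background on 0 arrays, with differences of -0.13 and 0.001 and overlapping hearts. The detected probe (chr9:40042119-40042178) measured 7.41, 7.31 and 7.27 in WT hearts and 6.98, 7.09 and 7.02 in TG-PKR1 hearts. Every TG-PKR1 heart lay below every WT heart, and the difference was -0.30, or 0.812 of the WT level (SE 0.14, limma adjusted p = 0.9999). It was -0.35 within the extended-range arrays, -0.31 within the single-scan arrays and -0.33 between the 2 hearts of the shared slide. The common sign of these values follows from the lack of overlap and is no further evidence. With 75th percentile scaling it was -0.49, on the median and on the processed signal alike. A two-sided exact permutation test cannot go below p = 0.1 with 3 hearts against 3.

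Genes of the transient outward current had differences of both signs. Kcnd2, the Kv4.2 pore, measured 10.46, 11.15 and 10.68 in WT hearts and 10.17, 11.04 and 10.87 in TG-PKR1 hearts (difference -0.07, SE 0.27). Kcnd3, the Kv4.3 pore, measured 6.64, 7.30 and 7.31 in WT and 7.31, 7.64 and 7.07 in TG-PKR1 hearts (0.26, SE 0.23). The difference of Kcnd3 was 0.04 without WT 1, its lowest heart, and 0.07 with 75th percentile scaling. Kcnip2, the subunit KChIP2 that brings Kv4 channels to the membrane, measured 8.92, 8.46 and 8.27 in WT and 9.15, 8.75 and 9.09 in TG-PKR1 hearts. Only WT 1 reached into the range of the TG-PKR1 hearts, and the difference was 0.45, or 1.37-fold (SE 0.21, limma adjusted p = 0.9999). It was 0.79 within the single-scan arrays and 0.0032 within the extended-range arrays. Kcna4, the Kv1.4 pore, lay outside the 20000 probes and differed by -0.07 (SE 0.05, limma adjusted p over all probes = 1).

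Delayed rectifier genes included 1 of the probes without overlap. Kcnh2 (chr5:23831435-23831707) measured 9.81, 9.71 and 8.99 in WT and 9.90, 9.98 and 9.92 in TG-PKR1 hearts. The TG-PKR1 hearts were close together (SD 0.04) and above all WT hearts, of which WT 3 was the lowest. The difference was 0.43 (SE 0.22, limma adjusted p = 0.9999) and 0.17 without WT 3. Kcna5, the Kv1.5 pore, differed by 0.10 (SE 0.30) and Kcnq1 by 0.14 (SE 0.21). Kcne1, the partner of Kcnq1, differed by -0.10 (SE 0.24). In each of these 3 genes the hearts overlapped.

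Modulatory alpha subunits held a probe of each direction. Kcng2 (Kv6.2, chr18:80457718-80457777) measured 12.04, 11.73 and 11.19 in WT and 12.13, 12.11 and 12.14 in TG-PKR1 hearts. As with Kcnh2, the TG-PKR1 hearts were nearly equal (SD 0.02) and WT 3 was the lowest. The difference was 0.47, or 1.39-fold (SE 0.22, limma adjusted p = 0.9999), and 0.24 without WT 3. Kcns3 (Kv9.3, chr12:11117253-11117312), which was outside the 20000 probes and is named because its values stood out, measured 7.04, 6.50 and 6.58 in WT and 6.18, 6.10 and 6.05 in TG-PKR1 hearts. All TG-PKR1 hearts lay below all WT hearts, with a difference of -0.59 (SE 0.15, limma adjusted p over all 41174 probes = 1). Its probe was above background on 3 WT and 2 TG-PKR1 arrays, so the lower group lay at the edge of detection. Kcnv2 differed by 0.04 (SE 0.24).

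In all 7 tested inward rectifier probes, from 5 genes, the TG-PKR1 mean exceeded the WT mean (median difference 0.20, range 0.06 to 0.49), as it did in 58.16% of all probes, and limma called 0 of them. Kcnj15, detected but outside the 20000, differed by -0.03 (SE 0.09). Kcnj12, the Kir2.2 pore, measured 8.84, 8.64 and 8.10 in WT and 9.47, 8.68 and 8.91 in TG-PKR1 hearts. WT 1 lay above TG-PKR1 2, and the difference was 0.49, or 1.40-fold (SE 0.26, limma adjusted p = 0.9999). It was 0.27 without WT 3 and 0.26 without TG-PKR1 1. Kcnj11, the Kir6.2 pore of the cardiac ATP-sensitive channel, measured 10.23, 9.51 and 9.55 in WT and 10.35, 9.88 and 10.18 in TG-PKR1 hearts (0.38, SE 0.23). Of these 7 probes, 2 kept their sign within both scan ranges (Kcnj4 and the Kcnj3 probe with a difference of 0.20) and 5 did not (those of Kcnj12 and Kcnj11, both of Kcnj8 and the other of Kcnj3). Kcnj12 differed by 1.098 in the single-scan and by -0.05 in the extended-range arrays, and Kcnj11 by 0.83 and -0.20. That Kcnj3 probe differed by 0.53 and -0.08, and the 2 Kcnj8 probes by -0.05 and 0.28 and by -0.49 and 0.72.

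Kcnj8, the Kir6.1 pore found in vascular muscle, differed by 0.17 (SE 0.15), Kcnj3 by 0.22 (SE 0.26, 0.0339 to 0.48 without 1 heart) and Kcnj4 by 0.06 (SE 0.14). Kcnj2 (Kir2.1) and Kcnj5 lay outside the 20000 probes. The Kcnj2 probe (chr11:110890979-110891038) measured 5.78, 6.03 and 6.37 in WT and 6.40, 6.75 and 6.89 in TG-PKR1 hearts. Its TG-PKR1 hearts lay above its WT hearts by a small margin, with WT 3 next to TG-PKR1 1, and the difference was 0.62 (SE 0.19, limma adjusted p over all 41174 probes = 1). The probe of Kcnj2 was above background on 1 WT and 3 TG-PKR1 arrays, so it passed the detection minimum through the TG-PKR1 hearts. Its difference was 1.82 with processed signals under 75th percentile scaling, 0.34 after normexp with quantile normalization and 0.22 with 75th percentile scaling alone, so its size was not settled by these data. Kcnj5 differed by 0.20 (SE 0.11). Its probe was also above background on 1 WT and 3 TG-PKR1 arrays and passed the detection minimum through the TG-PKR1 hearts. Kcns3 and Kcnj2 were the 2 of 15 detected channel probes outside the 20000 whose hearts did not overlap, beside 7.5% of all detected probes outside them.

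**Figure D3:**
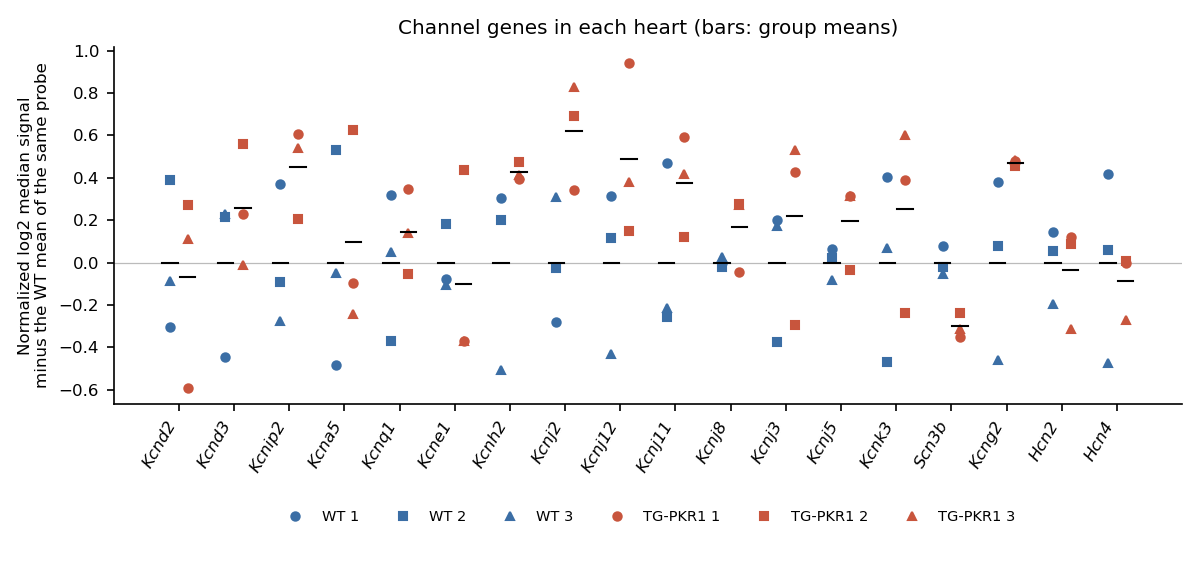
Normalized log2 median signal of the main channel genes in each of the 6 hearts, relative to the WT mean of the same probe (blue, WT; red, TG-PKR1; symbols, hearts 1 to 3; bars, group means). In Kcnh2 and Kcng2 the TG-PKR1 hearts coincide and WT 3 lies lowest, while in Scn3b the groups are apart by 0.30 with little spread in either.

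The two-pore channel Kcnk3 (TASK-1) measured 12.08, 11.21 and 11.75 in WT and 12.07, 11.44 and 12.28 in TG-PKR1 hearts, with a difference of 0.25 (SE 0.28). Leaving out 1 heart moved this difference to between 0.0159 and 0.50. Its second probe differed by 0.14 (SE 0.33) and Kcnk6 by -0.11 (SE 0.23). The small-conductance calcium-activated channels Kcnn1 and Kcnn2 differed by 0.02 (SE 0.16) and 0.04 (SE 0.22). Of the pacemaker genes, Hcn2 differed by -0.03 (SE 0.18), or -0.25 with 75th percentile scaling, with 7.10 to 7.43 in WT and 6.98 to 7.41 in TG-PKR1 hearts. Hcn4, the main pacemaker isoform of the sinus node, differed by -0.09 (SE 0.23), or -0.42 with 75th percentile scaling, with 6.43 to 7.32 and 6.63 to 6.91. The potassium beta subunit Kcnab1 differed by -0.18 (SE 0.23, -0.57 to -0.0467 under alternatives) and Kcna6 by -0.15 (SE 0.17), all with overlapping hearts.

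For 11 genes more than 1 probe was well above background. The probes had the same sign of difference in 8 and opposite signs in 3, among them Kcnd2 and Scn10a. None of the 58 probes was above background on all arrays of 1 group and on none of the other.

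The hearts differed from each other in ways that cut across the groups. In 16 of the 58 probes (27.6%, beside 20.7% of all 20000 probes) the 3 highest hearts were WT 1, TG-PKR1 1 and TG-PKR1 3. Kcnip2, Kcnj11, Kcnj12, Kcnj3, Kcnk3 and Kcnq1 belonged to these 16. WT 3 was the highest heart in 2 of the 58 probes (3.45%, beside 13.5% of the 20000) and the lowest in 13 (22.4%, beside 21.5%). Of the 58 probes, 15 lay outside the 20000, so these shares compare unlike sets. The median of the cardiomyocyte markers, relative to the WT mean, was 0.20, 0.08 and -0.29 in WT 1, 2 and 3 and 0.49, -0.19 and 0.06 in TG-PKR1 1, 2 and 3. WT 3 was lowest in this list, as it was in Kcnh2, Kcng2, Kcnip2 and Kcnj12, and TG-PKR1 1 highest, as in Kcnip2, Kcnj11 and Kcnj12. Other channel genes differed from the list. WT 2 was lowest in Kcnj11, Kcnk3 and Kcnq1, and the TG-PKR1 hearts of Kcnh2 and Kcng2 were nearly equal. The part of the marker levels in the channel values was not tested.

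Between the scan ranges most differences changed sign. In 18 of the 58 probes the difference had the same sign in the extended-range arrays (WT 1 against TG-PKR1 2 and 3) and in the single-scan arrays (WT 2 and 3 against TG-PKR1 1), positive in 11 and negative in 7. In 40 it did not. The share with the same sign, 31%, lay beside 31.4% of the 23159 probes of the array compared in the same way. The first 18 included Kcnh2 (0.14 and 0.55), Kcng2 (0.09 and 0.67), Kcnj2 (1.04 and 0.20), Scn3b and Kcns3 (-0.96 and -0.36). In these named probes the hearts of the groups did not overlap, so any split of the hearts gives the same sign. Their equal sign therefore adds nothing to the lack of overlap. With 1 heart of a group in each range, these values have no test.

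**Figure D4:**
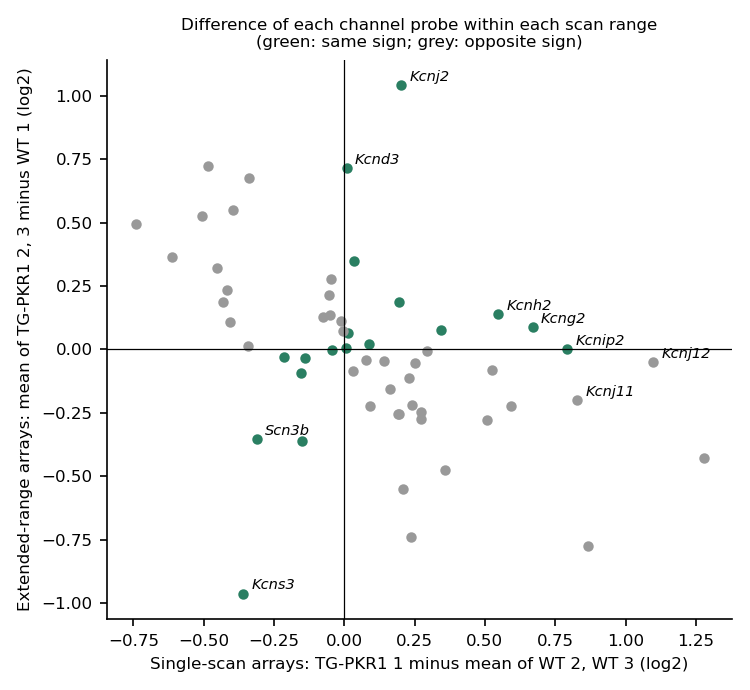
Difference TG-PKR1 minus WT (log2) of each of the 58 channel probes within the 3 single-scan arrays (horizontal) and within the 3 extended-range arrays (vertical). Green points, 18 probes, have the same sign in both, and 40 grey points do not.

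Genes that work beside the channels were read from a list of 43 names, in which older names of a gene counted separately. Among them were regulatory subunits of the ATP-sensitive channel, connexins, desmosome and anchoring proteins and transcription factors of the conduction system. Some names had no probe and were not measured. Of the 43 names, 36 were well above background on at least 3 arrays, and limma called 0 of the 34 tested. The TG-PKR1 mean was above the WT mean in 26 of the 36 and below it in 10 (median difference 0.08). Over all 20000 probes, 58.16% had the higher mean in TG-PKR1 hearts, and the median difference was 0.03. Abcc9, the SUR2 subunit that pairs with Kcnj11 and Kcnj8, differed by 0.30 (limma adjusted p = 0.9999), and its hearts did not overlap, while those of its other 2 probes did. Counted with 1 probe per gene, it was 1 of the 36 (2.78%), beside 5.41% of all probes, which were counted singly. Among the further probes of these genes in the 20000, 1 of Dsg2 also had hearts without overlap (0.33). Abcc8, the SUR1 subunit, differed by 0.11 (0.0508 to 0.19 without 1 heart). The next 3 genes were chosen after their values were seen. Ank2, the ankyrin that anchors channels and exchangers, differed by 0.42 (0.21 without TG-PKR1 2 to 0.69 without WT 2), and Gja1, the connexin of ventricular gap junctions, by -0.22 (-0.44 without WT 2 to 0.052 without WT 1). Rrad, a small G protein that restrains calcium channels, differed by 0.82 (limma adjusted p = 0.9999), with overlapping hearts, and by 0.43 without WT 2 and 1.27 without WT 1.

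The adipocyte markers differed between the groups in the same hearts. All 5 that were well above background had lower means in TG-PKR1 hearts, and limma called 3 of them. These calls were lost with scan mode as a block and in the authors' table, where limma called 0 of all probes. The median of the adipocyte list relative to the WT mean was -0.30 to 0.20 in WT hearts and -2.07 to -1.69 in TG-PKR1 hearts. Of 6 brown adipocyte markers, 5 had lower means in TG-PKR1 hearts (median difference -1.58). Limma called 1 of them, Ucp1 (-3.23), a call also lost with scan mode as a block. Of the 5 glial markers 4 had lower means (median -0.05), with S100b at -0.89 without overlap and not called. The part of fat tissue in the channel values was not tested.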

How the data were processed

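RNA of 3 WT and 3 TG-PKR1 hearts was measured on 6 single-dye arrays. The authors deposited spot intensity values extracted with Agilent Feature Extraction 9.5.1.1, without normalization between arrays, and a table of LOWESS-normalized log2 values filtered to the brightest probes. Other columns used, such as the software's marks for outliers and for signal well above background, were deposited by the authors too. Probe positions are those of mm8.

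Here log2 median signals without background subtraction were used, so differences of dim probes are understated. Outlier spots were left out, a loess with span 0.3 and 4 iterations brought each array to the median profile of all arrays, and spots of a probe were averaged. The 20000 probes with the highest median were tested with limma 3.58.1 in R 4.3.3, and p-values were adjusted over all of them by Benjamini-Hochberg. Channel probes outside them were taken from the fit over all 41174 probes. A probe counted as well above background on an array where at least 0.5 of its spots did. SAM used all 20 assignments of the hearts. RefSeq (GRCm38.p6) matched 125 channel probes by accession and 26 by name.

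Hearts are numbered in the order of the labels, and the numbers carry no pairing. The methods count 6 animals. Precision is limited by the number of arrays. Named were 22 genes of cardiac currents, any called probe and the 5 tested probes with the largest difference in each direction, each gene by its probe detected on the most arrays. Some of these genes are not reported here. Other channel genes are named by their detection or as exceptions chosen after their values were seen. Members and lists were chosen with earlier results of these data known. The fits were tested on simulated data with independent noise for each probe and 200 changed probes. These data held no differences of scan range, slide or whole heart, so the fits met less structure than in the measured hearts. With 3 simulated hearts against 3, the fits recovered 0% of probes changed by 0.5 on the log2 scale. They recovered 29.5% of those changed by 1 and 89.5% of those changed by 2. The differences of the tested channel probes, from -0.30 to 0.49, lay below these sizes. Alternatives of signal, background, normalization, filter, test, scan range, slide and left-out hearts are given under the dependence on processing.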

Additional observations from a re-analysis of the deposited data

How the results depend on the processing

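The count of channel probes called by limma was 0 in each direction under all alternatives with a test, and so was that of the partner genes. These were 4 other signals or backgrounds (processed, normexp, mean, outlier spots kept), quantile normalization or 75th percentile scaling, both other probe filters, the authors' table, SAM or eBayes with trend and robust, scan mode as a block and leaving out each heart. In 9 of 18 such fits limma called 0 of all probes, so the 0 there shows no stability (75th percentile scaling, both filters, the authors' table, scan block, and without WT or TG-PKR1 replicate 1 or 3). In the other 9 it called 2 to 33. A threshold of 0.1 and averaging per gene were also tried. At an unadjusted p of 0.05, limma passed 5 of 151 channel probes in the fit of all probes (3.31%, beside 2.56% of all) and 5 of 43 without WT replicate 1 (11.6%, beside 5.29%), and 0 to 3 elsewhere, and the smallest adjusted p was 0.709. The median difference of the channel probes moved to 0.19 within the single-scan arrays (0.0041 over all probes). It was -0.04 within the extended-range arrays (-0.0078 over all probes) and -0.03 with 75th percentile scaling (-0.02 over all probes). When hearts were left out it was 0.05 to 0.08. The number of detected genes, 47, was 33 on all 6 arrays and 63 on at least 1.

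Of 379 tested values of the single genes reported, 364 kept their direction, 15 changed sign and 0 passed the threshold. The sign changed with 75th percentile scaling for Kcnd2 (0.0648), and for Hcn4 with processed signals under 75th percentile scaling (0.037) and with normexp plus quantile normalization (0.0016). It changed under no other tested alternative that kept all hearts, including a loess on the profile itself, chosen after seeing the data. Without 1 heart, the difference ranged from -0.13 to 0.11 for Hcn2, -0.33 to 0.12 for Hcn4, -0.17 to 0.36 for Kcna5, -0.24 to 0.19 for Kcnd2, -0.37 to 0.033 for Kcne1, -0.33 to 0.0247 for Kcnk6 and -0.0398 to 0.30 for Kcnq1. Of the 22 probes, 19 changed sign or moved by over 1.5 times without some heart, and Kcnip2, Kcnj2 and Scn3b did not. With all hearts kept, 13 of the 22 did so under another signal, normalization, table or block. The 9 that did not were Kcna4, Kcne1, Kcng2, Kcnh2, Kcnip2, Kcnj11, Kcnj12, Kcnj3 and Kcnj5. The cause of these changes was not tested. Signal over background limits Kcnj2, Kcnj5, Kcns3 and genes at the detection edge. Slide as a fixed block leaves no residual degree of freedom, and as a random block its correlation could not be estimated, so slide entered only as the difference within the shared slide, whose channel median was 0.04. No paired analysis was possible because nothing ties a WT mouse to a TG-PKR1 mouse.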
